A study of Rattus norvegicus with 26 samples.

Results

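The nuclear genes for the protein subunits of oxidative phosphorylation were read in the aorta of hypertensive rats given a herbal preparation, valsartan or saline. The set holds every array probe outside the controls whose transcript accession matches a rat symbol beginning with Ndufa, Ndufb, Ndufc, Ndufs, Ndufv, Sdha to Sdhd, Uqcr, Cox4 to Cox8 or Atp5. Assembly factors named Ndufaf, pseudogenes, Cox8b and Cox7a1 were left out. The rule gave 91 probes of 74 genes, out of 30367 probes and 15162 named genes on the array. They comprise 32 genes of complex I, 4 of complex II, 8 of complex III, 15 of complex IV and 15 of complex V. The gene table holds 108 genes that meet the naming rule, and 34 of these, Ndufa4l2 among them, had no matched probe. Cox8c was not well above background on enough arrays to be tested, which left 73 genes. On their brightest probe, 70 of these were well above background on all 26 arrays.

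The rats were male spontaneously hypertensive rats (SHR), an inbred strain with inherited high blood pressure, and no group of normotensive rats was analysed here. For 4 weeks 1 group received saline by mouth (7.5 mL/kg, n = 8 arrays). Songling Xuemaikang capsule (SXC), a Chinese herbal preparation, was given at a low dose (236.25 mg/kg, n = 6) or a high dose (708.75 mg/kg, n = 6). Valsartan, which blocks the angiotensin receptor, was given at 21.6 mg/kg (n = 6 arrays analysed here; the series text names 8 rats). The sources used here give no age for the rats. Total RNA of each thoracic aorta was labelled with Cy3 and hybridised to a 1-colour Agilent rat array after 28 days. A level below is the log2 intensity of a probe minus the 75th percentile of its own array, so a difference of 1 between arrays is a 2-fold difference. The number of arrays limits the precision, with standard errors of a subunit gene's change against saline between 0.09 and 0.58.

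Oxidative phosphorylation makes most of the cell's ATP in the inner mitochondrial membrane. Complexes I and II take electrons from NADH and from succinate, complex III passes them from ubiquinone to cytochrome c, and complex IV passes them to oxygen. Complexes I, III and IV pump protons as they do so, and complex V, the ATP synthase, uses the returning protons to make ATP. Most subunits are nuclear genes, and the remaining core subunits come from mitochondrial DNA and were not analysed here. Smooth muscle of the aorta is a tissue of modest oxidative capacity, whereas the brown fat that surrounds the thoracic aorta of rats is very rich in mitochondria.

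Many nuclear subunit genes carry sites for nuclear respiratory factor 1 (NRF1) or for ETS-family factors such as the GA-binding protein close to their start. The 6 promoters printed here were chosen because they hold such letters and their genes were called in all 3 treated groups. Most promoters of the set hold neither kind. RefSeq promoters (GRCr8) were found for 65 of the 74 genes, and the 250 bases before the start were searched on both strands. The palindromic core motif of NRF1 was in 15.4% of the 65 promoters against 3.75% of all 33469 promoters in the table. The ETS letters CCGGAAG were in 29.2% against 7.27%, and the letters AAGGTCA of the oestrogen-related receptors in 9.23% against 3.99%. The letters stood before genes called in either direction. Against saline at the high dose, NRF1 or ETS letters stood in 10 of the 25 promoters of genes called lower, in 4 of the 7 of genes called higher and in 14 of the 32 of genes not called. Sdha (chr1:30764303-30764552, plus strand), Sdhb (chr5:158547684-158547933, plus strand), Uqcrc1 (chr8:118467973-118468222, plus strand) and Ndufv3 (chr20:9613536-9613785, plus strand) were called lower in all 3 treated groups. Atp5me (chr14:1464610-1464859, plus strand) and Atp5mk (chr1:255922048-255922297, minus strand) were called higher in all 3 on their brightest probe. Each promoter runs 5′ to 3′ along its gene and ends at the base before the start, with NRF1 and ETS letters in capitals.
Sdha: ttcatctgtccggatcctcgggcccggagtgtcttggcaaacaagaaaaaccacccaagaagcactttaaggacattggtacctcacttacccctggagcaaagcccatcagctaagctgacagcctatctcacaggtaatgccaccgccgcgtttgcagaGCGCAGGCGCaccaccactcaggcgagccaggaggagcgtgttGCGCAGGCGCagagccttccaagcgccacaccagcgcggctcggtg
Sdhb: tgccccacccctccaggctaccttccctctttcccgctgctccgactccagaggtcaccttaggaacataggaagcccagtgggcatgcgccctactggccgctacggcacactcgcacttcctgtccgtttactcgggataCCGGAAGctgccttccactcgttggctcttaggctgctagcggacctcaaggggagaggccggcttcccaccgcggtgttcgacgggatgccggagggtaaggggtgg
Uqcrc1: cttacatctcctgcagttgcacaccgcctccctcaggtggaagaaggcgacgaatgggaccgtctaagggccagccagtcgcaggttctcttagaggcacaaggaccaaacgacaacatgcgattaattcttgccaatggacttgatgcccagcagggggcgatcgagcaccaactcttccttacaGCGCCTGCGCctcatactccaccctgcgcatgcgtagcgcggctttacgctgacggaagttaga
Ndufv3: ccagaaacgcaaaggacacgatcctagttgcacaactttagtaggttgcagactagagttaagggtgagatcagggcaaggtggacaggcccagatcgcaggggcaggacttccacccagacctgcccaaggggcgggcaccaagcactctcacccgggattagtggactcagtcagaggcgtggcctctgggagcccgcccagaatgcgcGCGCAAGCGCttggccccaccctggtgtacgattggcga
Atp5me: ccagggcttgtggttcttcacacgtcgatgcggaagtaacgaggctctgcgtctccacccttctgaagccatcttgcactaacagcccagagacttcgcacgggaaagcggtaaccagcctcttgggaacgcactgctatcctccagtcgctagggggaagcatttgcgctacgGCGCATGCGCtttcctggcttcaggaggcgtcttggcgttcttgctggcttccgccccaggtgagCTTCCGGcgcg
Atp5mk: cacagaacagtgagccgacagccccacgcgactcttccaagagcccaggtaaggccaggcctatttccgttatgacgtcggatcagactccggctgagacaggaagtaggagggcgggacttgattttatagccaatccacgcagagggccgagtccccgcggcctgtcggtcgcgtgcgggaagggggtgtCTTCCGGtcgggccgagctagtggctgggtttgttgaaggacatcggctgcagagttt
Sdha holds the NRF1 letters at a pair of positions (-89 to -80 and -46 to -37, counted back from the start), and Atp5me holds both motifs. These matches describe the printed letters and were not measured as binding.

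Against all 8 saline arrays, the subunit genes were on balance lower in all 3 treated groups. At the high dose of SXC, 28 of 73 genes fell and 8 rose (adjusted p under 0.05 in limma over all 23744 tested probes), where 22.7% of all named genes fell and 35.1% rose. At the low dose 25 fell and 12 rose, against 19.9% and 24.2% of all genes. With valsartan 37 fell and 8 rose, against 25.9% and 33.3%. The median log2 change of the 73 genes was -0.46, -0.39 and -0.55, while that of all tested probes was 0.25, 0.09 and 0.20. All 3 comparisons use the same saline arrays, so their likeness is not independent. The split between higher and lower moved with the scaling: centring each array on the median of all tested probes gave 6 higher and 46 lower at the high dose. Quantile normalisation gave 7 higher and 36 lower at the low dose.

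These counts rest in part on 3 of the 8 saline arrays. The median level of the 73 genes was 4.72, 4.55 and 4.00 on saline arrays 3, 7 and 8, and between 2.66 and 2.93 on the other 5. All 18 treated arrays lay between 2.57 and 3.24, with group medians of 3.01 at the low dose, 2.92 at the high dose and 2.63 with valsartan. For 62 of the 73 genes, arrays 3, 7 and 8 were the highest 3 of the saline group. The exceptions were Atp5mc1 and Atp5if1, which were lowest on these 3 arrays, and 9 genes in mixed order, among them Ndufc2, Ndufa2, Cox7a2l and Atp5pf. The saline group was therefore uneven for these genes, and the counts of genes called against saline are given below with and without the 3 arrays.

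**Figure D1:**
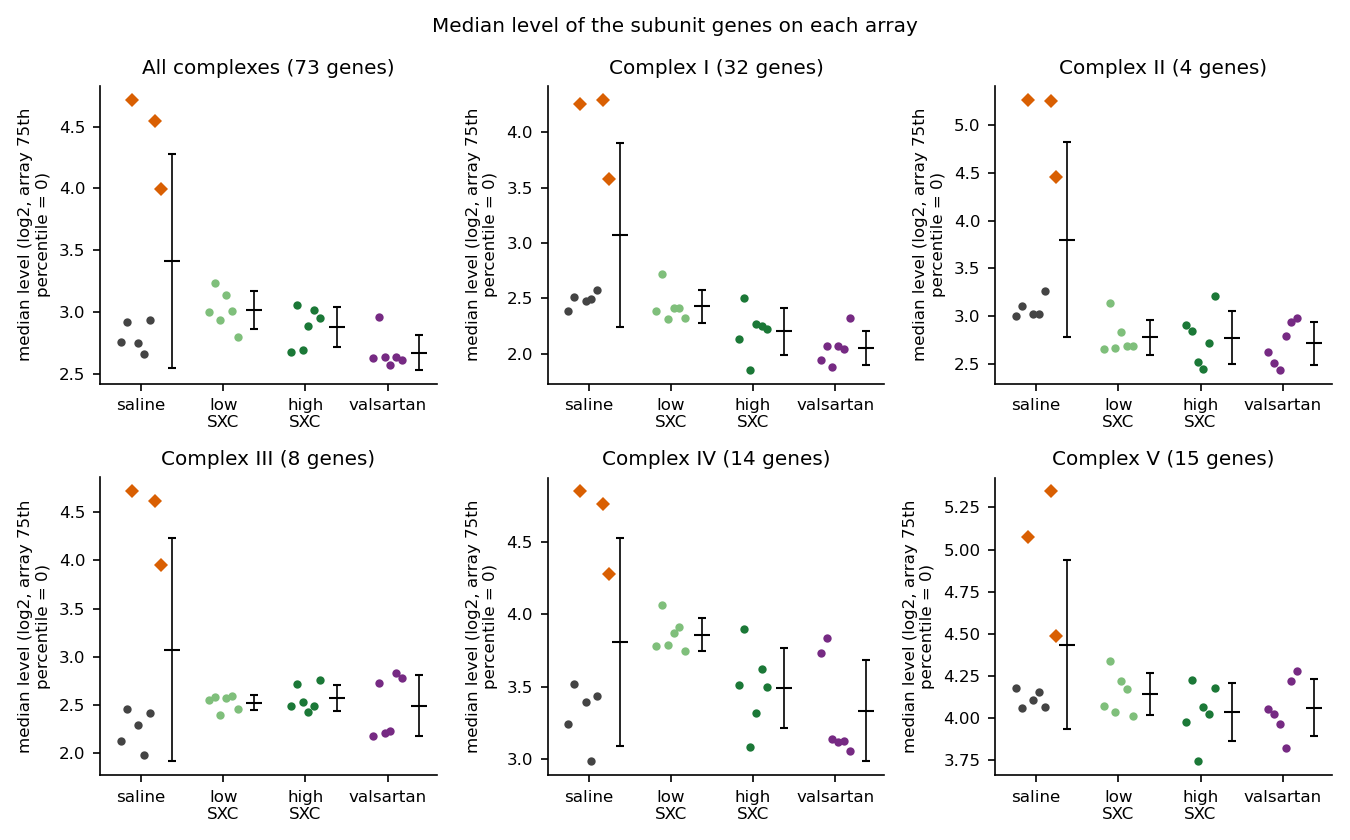
Median level (log2, relative to the array's 75th percentile) of the tested subunit genes on each array, for all 73 genes and by complex; each point is 1 array, orange diamonds are saline arrays 3, 7 and 8, and the black bars are group means with SD. The 3 orange arrays sit above every other array in the panel of all genes (4.00 to 4.72 against at most 3.24), and the remaining 5 saline arrays lie among the treated ones.

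The 3 saline arrays were also those richest in RNA of fat cells. Ucp1, the heat-producing uncoupling protein of brown fat, stood at 6.91, 6.49 and 6.14 on saline arrays 3, 7 and 8, between 0.25 and 3.59 on the other saline arrays and between -0.81 and 3.64 on the treated arrays. Adipoq, the hormone adiponectin of fat cells, stood at 6.22, 6.27 and 5.55 on the same 3 arrays and at 4.36 or below on the others of the group. Cox8b, the striated muscle and brown fat form of complex IV subunit 8, which is not among the members, stood at 3.68, 3.97 and 2.78 on the 3 arrays and at most 1.58 on any treated array. The summed level of the white fat list (7 of 8 genes tested) ran from 3.43 to 7.63 in saline, 2.54 to 4.64 at the low dose, 2.34 to 4.57 at the high dose and 1.87 to 3.58 with valsartan. That of the brown fat list (8 of 9 tested) ran from 3.50 to 8.38, 3.86 to 6.02, 3.78 to 5.99 and 3.34 to 4.36. Every tested fat marker was well above background on some saline array, and 1 gene of each list was not on any valsartan array. Acta2, the actin of smooth muscle, was at 5.63, 3.10 and 6.37 on the 3 arrays and 4.82 to 6.72 on the rest of the group. Summed over the smooth muscle list (8 of 8 tested), the level was 6.96, 6.30 and 7.61 on the 3 arrays and 7.53 to 8.02 on the rest. The summed level of endothelial markers was 4.94, 4.75 and 4.45 on the 3 arrays and at most 3.86 on the other saline arrays. It was 1.89 to 2.90 at the low dose, 1.31 to 3.43 at the high dose and 1.76 to 3.07 with valsartan. That of fibroblast markers was 7.83, 7.75 and 8.30 on the 3 arrays and 8.52 to 8.75 on the other saline arrays. Every treated array lay below the latter, at 7.92 to 8.28, 7.61 to 8.19 and 7.45 to 7.96 at the low dose, high dose and with valsartan. Fewer cells of a type and less RNA per cell cannot be told apart in whole tissue, and the part of these cell types in the subunit results was not tested. Leaving out the 3 arrays is not such a test, since they were the highest of the saline group for 62 of the 73 genes.

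**Figure D2:**
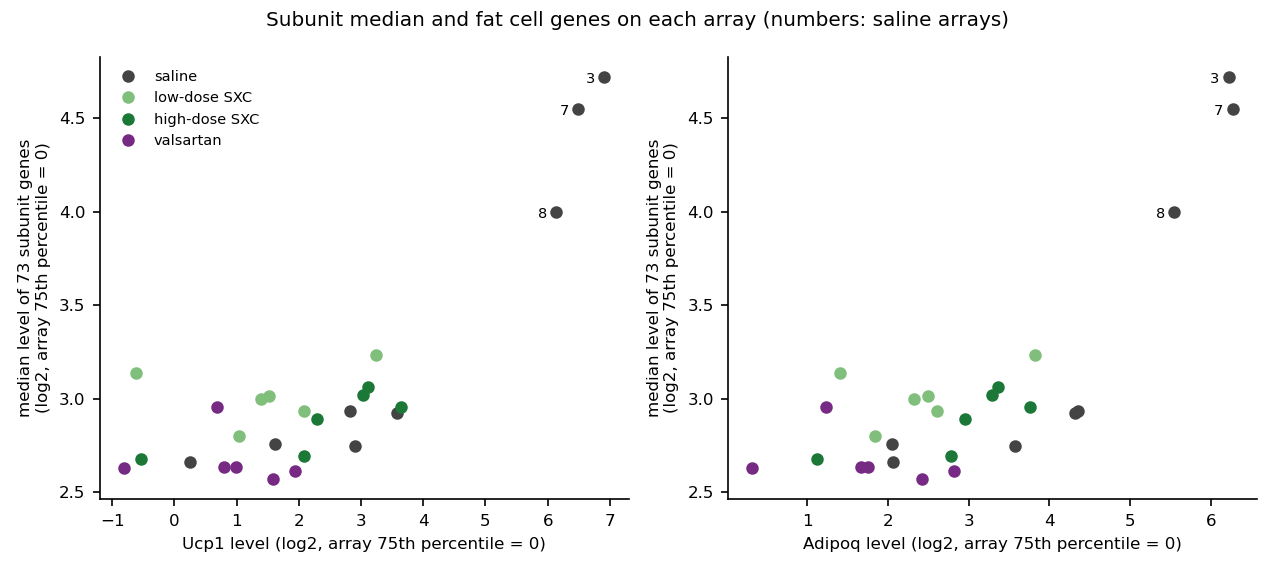
Median level of the 73 subunit genes (vertical axis) against the level of Ucp1 (left) or Adipoq (right) on each of the 26 arrays, both in log2 relative to the array's 75th percentile, coloured by group, with saline arrays 3, 7 and 8 numbered. The 3 numbered arrays lie apart at Ucp1 levels of 6.14 to 6.91, and the other 23 arrays lie at 3.64 or below.

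Without saline arrays 3, 7 and 8, an alternative that leaves 5 saline arrays, the balance between rises and falls changed. At the high dose 22 genes were higher and 18 lower (32.6% and 22.0% of all genes). At the low dose 24 were higher and 16 lower (21.9% and 18.0%), and with valsartan 23 were higher and 26 lower (30.5% and 24.9%). The median change of the 73 genes became 0.01, 0.10 and -0.10. Of the genes that fell with all saline arrays, 17 of 28, 15 of 25 and 26 of 37 were still called lower. All 8, 12 and 8 rises were still called, and 14, 12 and 15 further genes were called higher, while no call turned to the opposite direction.

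**Figure D3:**
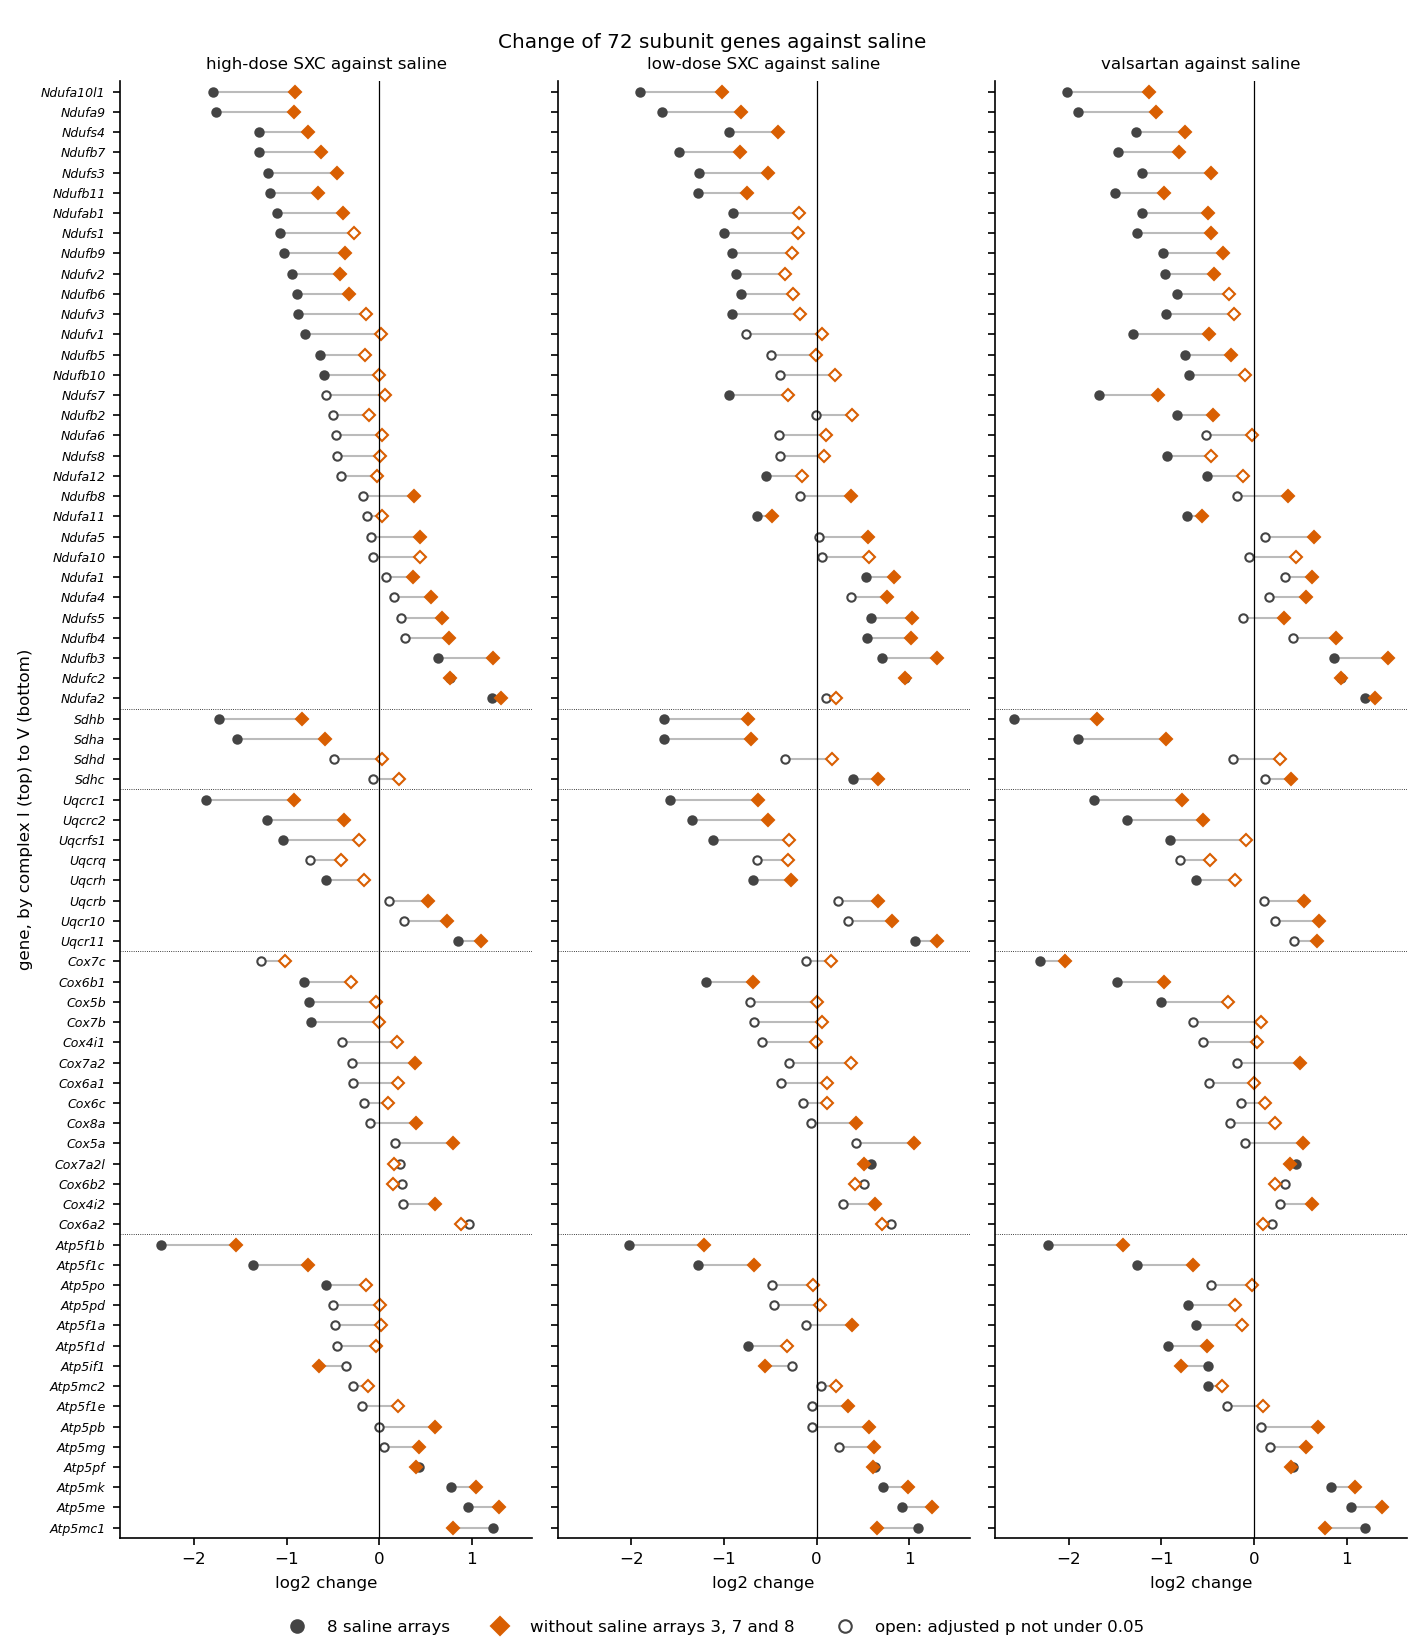
Log2 change of 72 of the 73 tested subunit genes against saline in the 3 treated groups, by complex from I (top) to V (bottom); grey circles use all 8 saline arrays and orange diamonds the 5 left without arrays 3, 7 and 8, and open symbols are not called. Leaving out the 3 arrays moves most genes to the right, by unequal amounts, while Ndufc2 and Atp5pf stay in place and Atp5mc1 and Atp5if1 move left.

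The groups were also read at different times and settings. The saline arrays were scanned on 1 day, 82 days after the last treated array, so scan day and saline cannot be told apart. High-dose arrays 3 to 6 and all valsartan arrays were read with the detector at 323 to 325 V, and the other 16 arrays at 353 to 354 V; the first is called the lower gain. Between 28.7% and 79.3% of all probes cleared the background on high-dose arrays and 32.4% to 56.5% on valsartan arrays, against 67.3% to 77.0% on saline and low-dose arrays. Of the member probes, 98.9% were well above background on each saline and low-dose array, 89.0% to 100% on high-dose and 90.1% to 96.7% on valsartan arrays. With gain as a block, 4 genes rose and 8 fell at the high dose, and 2 rose and 6 fell with valsartan. The valsartan comparison then rests on the gain difference within the high-dose group. With valsartan the calls lost included Ndufa2, Ndufa9, Ndufs1, Ndufv1, Sdha, Sdhb, Uqcrc1, Uqcrc2, Uqcrfs1 and Cox7c. Those of Atp5f1a, Atp5f1b, Atp5f1c, Atp5if1, Atp5mc1, Atp5mc2 and Atp5me were lost too, while Ndufc2, Cox7a2l, Cox6b1 and Ndufa10l1 stayed called. At the high dose the calls lost included Ndufa2, Ndufs1, Ndufv1, Sdha, Sdhb, Uqcr11, Uqcrc2, Uqcrfs1 and Cox5b. Over all 23744 tested probes this block left 4332 higher and 2170 lower at the high dose, from 8468 and 5079. For valsartan it left 1898 and 1355, from 7893 and 5983. Fewer probes were thus called across the array, not only among the subunit genes. Red cell markers separated saline from treated arrays as well: their summed level (7 of 8 tested) was 7.03 to 9.20 in saline and 1.31 to 3.97 in the treated groups. Macrophage markers (8 of 8 tested) were at 2.95 to 4.15 against 0.42 to 1.71. Striated muscle markers (8 of 10 tested) were at 0.32 to 1.06 in saline, 1.13 to 1.76 at the low dose, 1.40 to 2.02 at the high dose and 0.83 to 1.54 with valsartan. Nerve and Schwann cell markers (7 of 7 tested) were at 2.62 to 3.19 in saline, 2.78 to 3.31 at the low dose and 2.89 to 4.74 at the high dose, and at 3.52 or above on every valsartan array, with a median of 3.84. The part of these differences in the subunit results was not tested. Smooth muscle markers, which fit the tissue label, were well above background in all groups and lay between 6.30 and 8.02 in every array.

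Complex I, the NADH dehydrogenase, is the largest, with 32 of the 73 tested genes, and held most of the genes that fell. At the high dose 16 of its 32 genes fell and 3 rose, at the low dose 15 and 5, and with valsartan 21 and 3. Of all named genes 22.7%, 19.9% and 25.9% fell and 35.1%, 24.2% and 33.3% rose. Complexes II and III had 2 of 4 and 4 of 8 genes lower in each group. Without the 3 saline arrays the falls were 11, 7 and 16 and the rises 9, 8 and 9. The shares of all named genes were then 22.0%, 18.0% and 24.9% lower and 32.6%, 21.9% and 30.5% higher. Ndufc2 and Ndufb3, accessory subunits of the membrane arm, rose in all 3 comparisons. Ndufa2 rose at the high dose and with valsartan, and Ndufa1, Ndufb4 and Ndufs5 rose at the low dose. The other probe of Ndufb4 changed by -0.34 at the low dose without a call.

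Ndufa9, an accessory subunit near the ubiquinone site, had levels of 0.91 to 3.57 (median 1.15) in saline, 0.00 to 0.54 (0.13) at the low dose, -0.42 to 0.42 (0.20) at the high dose and -0.40 to 0.30 (-0.01) with valsartan. No treated array reached the lowest saline array. It fell by 1.76 ± 0.36 (SE) at the high dose, 1.67 at the low dose and 1.91 with valsartan (limma adjusted p = 0.00016, 0.00051 and 6.3e-05), and by 0.92, 0.82 and 1.06 without the 3 saline arrays. Blocking on gain, the high-dose change was -1.56 and called, and the valsartan change, -1.60, was not called (limma adjusted p = 0.121). Ndufa10l1, a close copy of the subunit gene Ndufa10, fell by 1.80, 1.91 and 2.02 (0.91, 1.02 and 1.13 without the 3 arrays) and did not overlap with saline either. Ndufa10 itself changed by only -0.07, 0.05 and -0.05 and was not called. Probes for such close copies can share signal, so their difference is uncertain.

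Ndufs1, the large iron-sulphur subunit of the electron input arm, was at 1.57 to 4.13 (median 1.69) in saline, 1.15 to 1.93 (1.32) at the low dose, 1.01 to 1.49 (1.43) at the high dose and 0.96 to 1.38 (1.12) with valsartan. It fell by 1.07, 1.00 and 1.27 at the high dose, low dose and with valsartan (limma adjusted p = 0.0088, 0.02 and 0.0025). Only the valsartan call was left without the 3 saline arrays, at -0.46, against -0.27 and -0.20 for the SXC doses. Ndufv1, which binds NADH, was at 2.51 to 5.14 (median 2.85) in saline, 2.56 to 3.05 (2.71) at the low dose, 2.15 to 3.00 (2.85) at the high dose and 1.96 to 2.48 (2.22) with valsartan. The SXC groups overlapped with the lower saline arrays, and the valsartan group lay below them all. Its fall of 0.80 at the high dose was barely called (limma adjusted p = 0.048), was lost without any one of saline arrays 3, 7 and 8 or any one high-dose array, and became 0.013 without the 3 saline arrays. With valsartan it fell by 1.30, and by 0.49 without them.

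Further complex I genes fell both with and without the 3 saline arrays in every treated group. Ndufb11, an accessory subunit of the membrane arm, fell by 1.18, 1.28 and 1.50 at the high dose, low dose and with valsartan, and by 0.66, 0.75 and 0.97 without them. Ndufb7 fell by 1.29, 1.48 and 1.47, and by 0.63, 0.82 and 0.81. Ndufs4, a late-joining accessory subunit of the electron input arm, fell by 1.29, 0.95 and 1.27, and by 0.76, 0.42 and 0.74. Ndufs3, a core subunit, fell by 1.20, 1.27 and 1.21, and by 0.45, 0.52 and 0.47. No treated array overlapped with saline for Ndufb11 and Ndufs4, while Ndufb7 overlapped at the high dose and Ndufs3 at the high dose and with valsartan. Ndufv3, an accessory subunit beside Ndufv1, fell on its brightest probe by 0.88, 0.91 and 0.95 with all arrays. Without the 3 that probe changed by -0.15, -0.18 and -0.22 and was not called. The other probes of Ndufv3 fell further with all arrays, 1 by 2.27, 2.36 and 2.67 and 1 by 1.38, 1.58 and 1.57, all called.

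Ndufc2, a small membrane-arm subunit, had the smallest adjusted p of complex I in each comparison with saline. Its levels were 3.32 to 3.50 (median 3.40) in saline, 4.25 to 4.52 (4.35) at the low dose, 3.94 to 4.45 (4.13) at the high dose and 4.00 to 4.90 (4.23) with valsartan. No saline array reached any treated array, and saline arrays 3, 7 and 8, at 3.41, 3.50 and 3.32, were close to the other 5 at 3.35 to 3.46. It rose by 0.76 ± 0.12, 0.95 ± 0.12 and 0.94 ± 0.12 (limma adjusted p = 4.8e-06, 4.7e-07 and 2.3e-07), the same 0.76, 0.95 and 0.94 without the 3 arrays. With gain as a block the rises were 0.84, 0.95 and 1.05 and all were called.

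Ndufb3, a membrane-arm accessory subunit, was at 2.48 to 4.50 (median 2.59) in saline and at 3.68 to 3.99 (3.86), 3.39 to 4.22 (3.76) and 3.73 to 4.50 (3.83) at the low dose, high dose and with valsartan. Saline arrays 3, 7 and 8, at 4.28, 4.50 and 3.57, overlapped with the treated arrays and the other 5 lay below them. It rose by 0.63, 0.71 and 0.86 at the high dose, low dose and with valsartan, and by 1.22, 1.30 and 1.45 without the 3 arrays. The low-dose call was lost under quantile normalisation (0.50) and in 10 of the 14 fits that left out 1 array.

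Ndufa2 rose at the high dose and with valsartan and not at the low dose. Its levels were -0.83 to -0.34 (median -0.62) in saline, -0.91 to -0.19 (-0.50) at the low dose, -0.58 to 1.13 (0.95) at the high dose and 0.08 to 1.42 (0.31) with valsartan. The rise was 1.21 ± 0.24 at the high dose and 1.20 ± 0.24 with valsartan, against 0.10 ± 0.24 at the low dose. Within the high-dose group the 2 arrays of higher gain were at -0.58 and 0.01, and the 4 of lower gain at 0.77 to 1.13. Over all groups the 16 arrays of higher gain were at -0.91 to 0.01 and the 10 of lower gain at 0.08 to 1.42, without overlap. With gain as a block its change was 0.33 at the high dose and -0.12 with valsartan, neither called. Ndufa4, now placed with complex IV by many authors, changed by 0.16, 0.37 and 0.17 at the high dose, low dose and with valsartan without a call, and was called higher by 0.56, 0.76 and 0.56 without the 3 saline arrays.

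Complex II, succinate dehydrogenase, also serves the citric acid cycle, and its calls divided by its parts. The catalytic subunits Sdha and Sdhb were called lower in all 3 treated groups, and the membrane anchors Sdhc and Sdhd were not called lower in any. Sdha, the flavoprotein that oxidises succinate, was at 2.15 to 5.31 (median 2.71) in saline, 1.61 to 2.18 (1.69) at the low dose, 1.58 to 2.46 (1.87) at the high dose and 1.29 to 1.74 (1.51) with valsartan. Single arrays of both SXC groups reached the lowest saline arrays and no valsartan array did. It fell by 1.53 ± 0.40 at the high dose, 1.65 ± 0.40 at the low dose and 1.90 ± 0.40 with valsartan (limma adjusted p = 0.002, 0.0016 and 0.00024), and by 0.58, 0.70 and 0.95 without the 3 saline arrays. Blocking on gain, the high-dose and valsartan changes of Sdha, -1.53 and -1.89, were not called (limma adjusted p = 0.0574 and 0.102).

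Sdhb, the iron-sulphur subunit, was at 2.09 to 5.13 (median 2.55) in saline, 1.48 to 1.99 (1.59) at the low dose, 1.09 to 2.00 (1.57) at the high dose and -0.26 to 1.36 (0.98) with valsartan. Every treated array was below every saline array, and valsartan arrays 5 and 6 were lowest at -0.20 and -0.26. It fell by 1.74 ± 0.41, 1.64 ± 0.41 and 2.59 ± 0.41 at the high dose, low dose and with valsartan (limma adjusted p = 0.00086, 0.0023 and 8.1e-06), and by 0.83, 0.74 and 1.69 without the 3 saline arrays. With gain as a block the high-dose and valsartan changes were -1.49 and -2.23 and were not called (limma adjusted p = 0.0713 and 0.0605).

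Sdhc, 1 of the anchors, was at 4.75 to 5.86 (median 4.97) in saline, 5.35 to 5.67 (5.55) at the low dose, 4.83 to 5.46 (5.01) at the high dose and 5.15 to 5.49 (5.20) with valsartan. All groups overlapped, with the low-dose arrays above the 5 lower saline arrays. It rose by 0.39 ± 0.15 at the low dose (limma adjusted p = 0.047), a call that was lost under 11 of the 14 fits that left out 1 array, and by 0.67 without the 3 saline arrays. It changed by -0.07 at the high dose and 0.12 with valsartan. Sdhd, the other anchor, changed by -0.49, -0.34 and -0.23 without a call, and by 0.02, 0.17 and 0.28 without the 3 arrays.

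**Figure D4:**
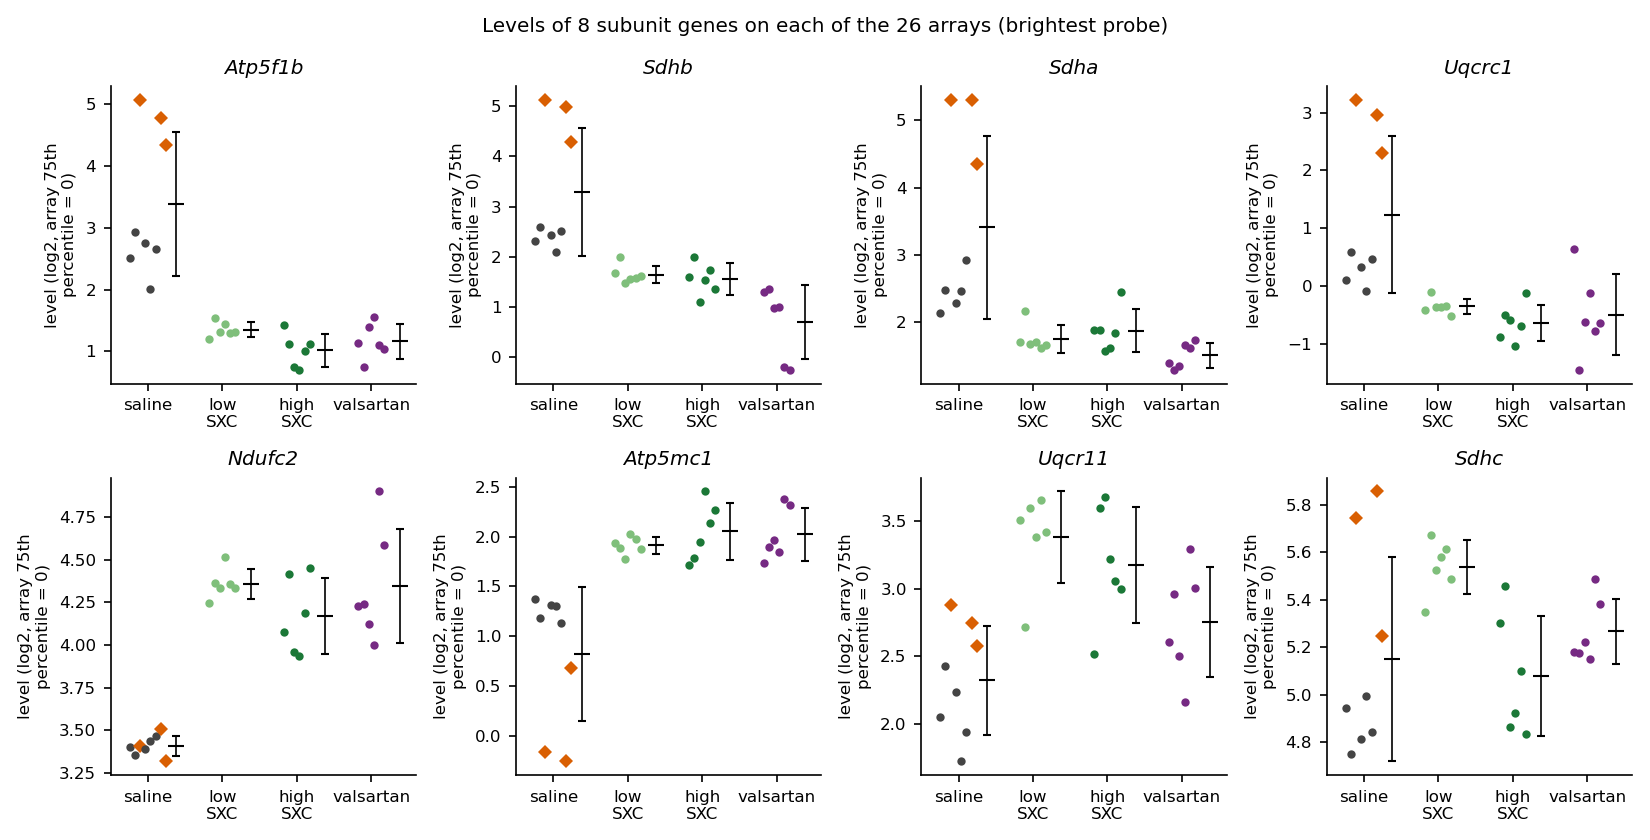
Levels (log2, relative to the array's 75th percentile) of 8 subunit genes on each array, on each gene's brightest probe; orange diamonds are saline arrays 3, 7 and 8, and black bars are group means with SD. Atp5f1b and Sdhb are lower on every treated array than on any saline array, Ndufc2 and Atp5mc1 are higher on every treated array, and Sdhc overlaps between all groups.

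In complex III, the cytochrome bc1 complex, both core proteins of the matrix side, the Rieske protein and the small hinge protein fell. These were 4 of its 8 genes, the same in each treated group, and 1 rose at each SXC dose and 0 with valsartan. The shares of all named genes at the high dose, low dose and with valsartan were 22.7%, 19.9% and 25.9% lower. Higher were 35.1%, 24.2% and 33.3% of them. Uqcrc1, a core protein, was at -0.09 to 3.22 (median 0.53) in saline, -0.51 to -0.11 (-0.36) at the low dose, -1.03 to -0.12 (-0.64) at the high dose and -1.45 to 0.64 (-0.63) with valsartan. The SXC arrays lay below all saline arrays and the valsartan arrays overlapped with them. It fell by 1.87 ± 0.43, 1.59 ± 0.43 and 1.73 ± 0.43 at the high dose, low dose and with valsartan (limma adjusted p = 0.00058, 0.0042 and 0.0012), and by 0.92, 0.64 and 0.78 without the 3 saline arrays. Blocking on gain, the high-dose change was -1.93 and called, and the valsartan change, -1.81, was not called (limma adjusted p = 0.149).

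Uqcrc2, the partner core protein, fell by 1.21, 1.35 and 1.37, and by 0.38, 0.52 and 0.55 without the 3 arrays. Uqcrh, the hinge protein that binds cytochrome c1, fell by 0.58, 0.69 and 0.62, and was called without the 3 arrays at the low dose only (-0.28). Uqcrfs1, the Rieske iron-sulphur protein, was at 1.84 to 4.60 (median 2.37) in saline and at 1.62 to 2.46, 1.53 to 2.52 and 1.63 to 2.57 at the low dose, high dose and with valsartan. The treated arrays overlapped with the 5 lower saline arrays. It fell by 1.04, 1.12 and 0.91 at the high dose, low dose and with valsartan with all saline arrays, and was not called without the 3, at -0.22, -0.30 and -0.09.

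Uqcr11, a small peripheral subunit, gave opposite answers on its 3 probes. On the brightest the levels were 1.73 to 2.88 (median 2.33) in saline, 2.72 to 3.66 (3.46) at the low dose, 2.52 to 3.68 (3.14) at the high dose and 2.16 to 3.30 (2.78) with valsartan. Each treated group overlapped with saline. This probe rose by 0.85 ± 0.21 at the high dose and 1.06 ± 0.21 at the low dose (limma adjusted p = 0.001 and 0.0002) and changed by 0.43 ± 0.21 with valsartan without a call. Another probe fell by 1.14, 0.96 and 1.12 at the high dose, low dose and with valsartan, and the remaining one changed by -0.31 and -0.26 at the 2 SXC doses without a call and fell by 0.59 with valsartan. All 3 probes carry 1 transcript accession, so no direction is given for the gene.

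Complex IV, cytochrome c oxidase, had few calls with all saline arrays. Of 14 tested genes, 3 fell and 0 rose at the high dose, 1 fell and 1 rose at the low dose, and 3 fell and 1 rose with valsartan. All named genes stood at 22.7%, 19.9% and 25.9% lower and 35.1%, 24.2% and 33.3% higher. Without the 3 saline arrays 4 rose in each group and 0, 1 and 2 fell. All named genes were then at 22.0%, 18.0% and 24.9% lower and 32.6%, 21.9% and 30.5% higher. Cox4i1, the common form of subunit 4, was at 3.72 to 5.79 (median 4.14) in saline, 3.84 to 4.11 (4.00) at the low dose, 3.58 to 4.48 (4.25) at the high dose and 3.70 to 4.32 (4.00) with valsartan. All treated groups overlapped with the 5 lower saline arrays, at 3.72 to 4.18, and lay below arrays 3, 7 and 8. Its changes of -0.40 ± 0.26, -0.59 ± 0.26 and -0.55 ± 0.26 at the high dose, low dose and with valsartan were not called.

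Other common subunits of complex IV were likewise not called. Cox6a1 changed by -0.28, -0.38 and -0.49, Cox7a2 by -0.29, -0.30 and -0.18 and Cox8a by -0.09, -0.06 and -0.26 at the high dose, low dose and with valsartan, none called. Leaving out the 3 saline arrays, Cox8a was called higher at both SXC doses (0.39 and 0.43) and Cox7a2 at the high dose and with valsartan (0.38 and 0.49). Cox4i2, the form of subunit 4 found in lung and vessels and induced by low oxygen, was at 0.19 to 2.02 (median 0.73) in saline and at medians of 1.16, 1.15 and 1.32 at the low dose, high dose and with valsartan. The groups overlapped, and its changes of 0.26, 0.29 and 0.28 at the high dose, low dose and with valsartan were called only without the 3 arrays (0.60, 0.63 and 0.63). Cox6a2, the heart and skeletal muscle form of subunit 6a, cleared the background on 3 of 6 high-dose arrays and on 0 of 6 with valsartan, and was not called.

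Cox6b1, a subunit on the side of cytochrome c, fell by 0.81, 1.20 and 1.48 at the high dose, low dose and with valsartan, and the high-dose call was lost without the 3 saline arrays (-0.30). Cox5b fell by 0.76 at the high dose and 1.00 with valsartan and was not called without the 3 arrays (-0.04 and -0.28). Cox7c was the largest fall with valsartan in this complex. It was at 4.08 to 5.27 (median 4.30) in saline, 4.25 to 4.50 (4.32) at the low dose, 1.41 to 4.53 (3.15) at the high dose and -0.39 to 4.16 (2.72) with valsartan. Valsartan arrays 5 and 6 were at -0.39 and -0.35, and the others of that group at 2.51 to 4.16. It fell by 2.31 ± 0.58 with valsartan (limma adjusted p = 0.0014) and by 2.04 without the 3 saline arrays, and with gain as a block the change was -0.45 and was not called. Cox7a2l, which joins complexes into supercomplexes, rose by 0.58 ± 0.11 at the low dose and 0.46 ± 0.11 with valsartan, with no overlap with saline in either, and changed by 0.23 ± 0.11 at the high dose without a call.

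Complex V, the ATP synthase, held genes called in both directions. At the high dose 3 of 15 genes fell and 4 rose, at the low dose 3 and 4, and with valsartan 7 and 4. Of all named genes, 22.7%, 19.9% and 25.9% fell and 35.1%, 24.2% and 33.3% rose in the same comparisons. On their brightest probes the same 4 genes, Atp5mc1, Atp5me, Atp5mk and Atp5pf, rose in all 3 comparisons, which share the saline arrays. Each was still called without saline arrays 3, 7 and 8.

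Atp5f1b, the catalytic beta subunit, was at 2.01 to 5.08 (median 2.84) in saline, 1.20 to 1.53 (1.31) at the low dose, 0.70 to 1.42 (1.06) at the high dose and 0.75 to 1.55 (1.11) with valsartan. Every treated array was below every saline array, with the 5 lower saline arrays at 2.01 to 2.92. It fell by 2.36 ± 0.35 at the high dose (5.14-fold), 2.03 ± 0.35 at the low dose and 2.22 ± 0.35 with valsartan (limma adjusted p = 2.7e-06, 4.0e-05 and 6.4e-06). Without the 3 saline arrays it fell by 1.55, 1.22 and 1.41. With gain as a block it fell by 2.11 at the high dose, and its change with valsartan, -1.84, was not called (limma adjusted p = 0.0632).

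Atp5f1c, the rotating gamma subunit, was at 1.75 to 3.66 (median 1.92) in saline and at 0.83 to 1.47, 0.66 to 1.54 and 0.81 to 1.49 at the low dose, high dose and with valsartan. No treated array reached a saline array. It fell by 1.37 ± 0.27, 1.28 ± 0.27 and 1.26 ± 0.27 at the high dose, low dose and with valsartan, and by 0.77, 0.68 and 0.66 without the 3 arrays. Blocking on gain, the high-dose change was -1.15 and called, and the valsartan change, -0.93, was not called (limma adjusted p = 0.255). Atp5f1a, the alpha subunit that alternates with beta in the head, changed by -0.48 and -0.12 at the high and low dose without a call. With valsartan it fell by 0.63, and was not called without the 3 arrays (-0.13).

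Atp5mc1, 1 of 3 genes for the membrane ring protein c, was at -0.26 to 1.37 (median 1.16) in saline, 1.78 to 2.03 (1.91) at the low dose, 1.72 to 2.46 (2.04) at the high dose and 1.73 to 2.38 (1.93) with valsartan. No saline array reached a treated array, and saline arrays 3, 7 and 8 were the lowest at -0.16, -0.26 and 0.68. It rose by 1.23 ± 0.22, 1.09 ± 0.22 and 1.20 ± 0.22 at the high dose, low dose and with valsartan (limma adjusted p = 3.7e-05, 0.00028 and 4.9e-05), and by 0.79, 0.65 and 0.76 without the 3 arrays. Blocking on gain, the high-dose change was 0.93 and called, and the valsartan change, 0.76, was not called (limma adjusted p = 0.239).

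Atp5me and Atp5mk, small subunits of the membrane part, rose by 0.95, 0.92 and 1.05 and by 0.77, 0.72 and 0.83. The other probe of Atp5mk changed by 0.26 and 0.29 at the high and low dose without a call and rose by 0.55 with valsartan. Atp5me was at 4.89 to 6.05 (median 4.99) in saline, 6.12 to 6.26 (6.20) at the low dose, 5.80 to 6.59 (6.29) at the high dose and 5.84 to 6.94 (6.25) with valsartan. The low-dose arrays lay above all saline arrays, and saline arrays 3 and 7, at 5.99 and 6.05, overlapped with the other groups. Blocking on gain, the high-dose change of Atp5me was 0.79 and called, and its valsartan change, 0.80, was not called (limma adjusted p = 0.147). Atp5pf, in the stalk that holds the head, rose by 0.42 ± 0.09, 0.63 ± 0.09 and 0.42 ± 0.09 without overlap, and by 0.40, 0.60 and 0.40 without the 3 arrays. Atp5if1, an inhibitor that stops the enzyme from running backwards, was at 2.65 to 3.62 (median 3.58) in saline and at medians of 3.06, 3.01 and 2.69 at the low dose, high dose and with valsartan. Its groups overlapped through saline arrays 3, 7 and 8, which were the lowest at 2.65, 2.65 and 3.16. It fell with valsartan only (0.50 ± 0.17), and without the 3 arrays in all 3 comparisons (0.65, 0.56 and 0.79 at the high dose, low dose and with valsartan).

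Between the treated groups few subunit genes differed. High-dose against low-dose SXC gave 2 genes higher and 2 lower of 73, against 16.1% and 5.35% of all genes. Ndufa2 was higher at the high dose by 1.11 ± 0.25 and Ndufa11 by 0.51 ± 0.16, while Sdhc was lower by 0.46 ± 0.16 and Cox7a2l by 0.35 ± 0.11. None of the 4 was called with gain or with scan day as a block, and the Sdhc and Cox7a2l calls were lost under quantile normalisation. With either block 0 of all 23744 tested probes were called in this comparison, so the loss is not particular to these genes. Valsartan against high-dose SXC gave 0 calls in either direction in limma, against 0.360% and 1.08% of all genes, and 3 genes at an unadjusted p under 0.05. The smallest adjusted p was 0.0671, for Ndufa11, at -0.59 (95% confidence interval -0.93 to -0.25). Valsartan against low-dose SXC gave 1 gene higher and 6 lower, against 13.6% and 9.88%.

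The higher gene with valsartan against the low dose was Ndufa2 (1.10 ± 0.25). The lower ones included Cox7c (-2.20 ± 0.62), Ndufb2 (-0.82 ± 0.25), Ndufs5 (-0.70 ± 0.23), Uqcr11 on its brightest probe (-0.63 ± 0.22) and Atp5mc2 on its brightest probe (-0.55 ± 0.19). The other probe of Atp5mc2 was called higher there, at 0.50, so no direction is given for that gene. With gain or with scan day as a block none was called. Of all 23744 tested probes, 3 were then called higher and 0 lower with gain, and 2 higher and 1 lower with scan day. The loss of these calls is therefore not particular to the subunit genes. The low-dose arrays all have the higher gain and the valsartan arrays the lower.

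Where a gene had several probes, they did not always give 1 answer. Of 14 genes with more than 1 probe, 7 had probes that differed in their call at the high dose, 6 at the low dose and 4 with valsartan, although all probes of each gene carry 1 transcript accession. For Ndufs5, a complex I subunit of the intermembrane side, the brightest probe rose by 0.59 at the low dose and the other changed by -0.47 without a call, while at the high dose that other probe fell by 0.82. Atp5mc2, another gene for the ring protein, was called both ways with valsartan, at -0.50 on the brightest probe and 0.59 on the other. That other probe followed detector gain, at 1.64 to 2.11 on the 16 arrays of higher gain and 2.20 to 3.24 on the 10 of lower gain. For Ndufab1, the acyl carrier protein, the brightest probe fell by 1.10 at the high dose and the other changed by 0.46 without a call.

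**Figure D5:**
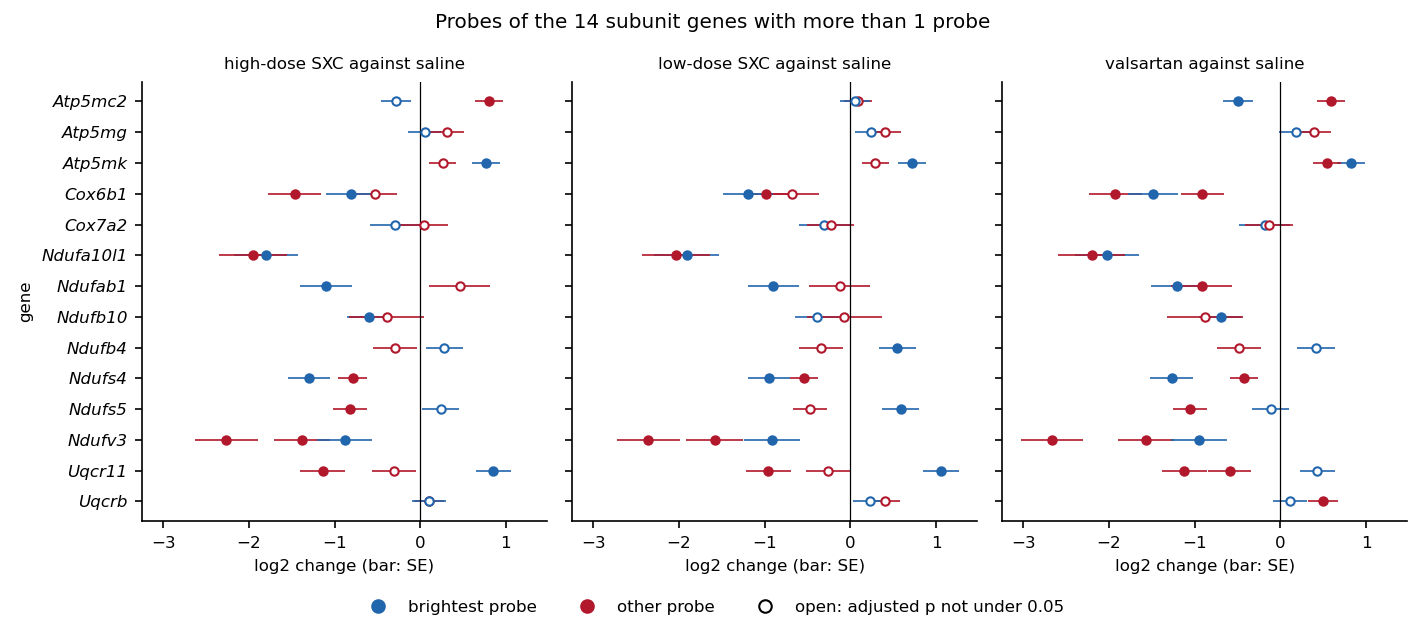
Log2 change against saline (points, with SE bars) of every tested probe of the 14 subunit genes that have more than 1, in the 3 treated groups; blue is the brightest probe of a gene, red any other, and open points are not called. The probes of Uqcr11 lie on both sides of 0 in all 3 panels, from -1.14 to 0.85 at the high dose, while those of Cox6b1 all lie below 0.

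Genes that feed and serve the complexes were read from whole pathway lists, with values in the order high dose, low dose and valsartan. Their counts stand beside 35.1%, 24.2% and 33.3% of all named genes called higher and 22.7%, 19.9% and 25.9% called lower. Without the 3 saline arrays these shares were 32.6%, 21.9% and 30.5% higher and 22.0%, 18.0% and 24.9% lower. Of 18 tested genes of the citric acid cycle list, 11 fell at the high dose and 9 at the low dose. With valsartan 13 fell, and 0 rose in any group. The list is not only cycle enzymes, since it also holds Mpc2, a subunit of the mitochondrial pyruvate carrier. Without the 3 saline arrays 6, 4 and 8 fell and 2 rose in each group. Idh3b, a subunit of the enzyme that makes NADH from isocitrate, fell by 2.38, 2.18 and 2.59, and by 1.40, 1.20 and 1.61 without the 3 arrays.

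Of the 5 electron carrier genes, 2, 2 and 3 fell and 1, 0 and 1 rose, and without the 3 saline arrays 2, 0 and 2 were lower and 1, 1 and 2 higher. Etfdh, which passes electrons from fatty acid oxidation to ubiquinone, fell by 1.93, 1.79 and 2.77 at the high dose, low dose and with valsartan, and Etfa, a subunit of its partner flavoprotein, by 1.73, 1.48 and 2.29. Without the 3 saline arrays Etfdh was at -0.75, -0.61 and -1.60, and Etfa at -0.57, -0.31 and -1.13, with neither called at the low dose. Cycs, cytochrome c, was at -0.45, -0.07 and -0.21 without a call, and at 0.33, 0.70 and 0.56 in the fit without the 3 arrays, called higher at the low dose and with valsartan.

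Assembly factors help to build the complexes without being subunits. Of 14 tested complex I factors, 3 rose in each group and 2, 0 and 2 fell, with Ndufaf8 up by 1.03, 1.34 and 1.19 and Ndufaf3 up by 0.93, 1.07 and 1.11. In the fit without the 3 saline arrays Ndufaf8 was higher by 1.10, 1.41 and 1.25, and Ndufaf3 by 1.04, 1.19 and 1.23, and 6, 7 and 5 of the 14 were higher and 1, 0 and 0 lower. Of 18 complex IV factors, 2, 3 and 2 rose and 5, 4 and 6 fell, and Cox19 (0.75, 0.90 and 0.80) and Coa8 (0.69, 1.03 and 0.66) were among the rises. With 5 saline arrays 2, 3 and 2 of the 18 were higher and 4, 1 and 4 lower, with Cox19 at 0.83, 0.98 and 0.89 and Coa8 at 0.71, 1.05 and 0.68. Of 5 complex V factors 0 rose and 2, 2 and 1 fell, and without the 3 arrays 2, 2 and 1 were higher and 1 lower in each group. Tmem70, which helps to build the synthase, fell by 1.50, 1.37 and 2.02, and by 0.75, 0.62 and 1.27 without the 3 arrays.

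Of 65 tested genes of the mitochondrial ribosome, which makes the subunits encoded in mitochondrial DNA, 9, 12 and 9 rose and 19, 16 and 25 fell, with medians of -0.12, -0.07 and -0.15. The balance of calls turned without the 3 saline arrays, where 21, 24 and 20 were higher and 14, 9 and 17 lower, with medians of 0.13, 0.06 and -0.02. Mrpl3, a protein of its large subunit, fell by 2.58, 1.76 and 2.90, and by 2.17, 1.35 and 2.49 without the 3 arrays. Of 12 nuclear regulators 3, 3 and 2 rose and 5, 5 and 6 fell, and without the 3 arrays 3, 3 and 2 were higher and 2, 4 and 4 lower. Ppargc1a, the coactivator PGC-1α that drives mitochondrial genes, was at -3.11 to -1.41 in saline, -4.35 to -3.29 at the low dose and -4.33 to -1.01 at the high dose, where array 3 alone was above -3.59, and fell by 1.09 and 1.42 at the high and low dose. It was well above background on only 3 of the 6 high-dose arrays, so the fall at that dose rests partly on values near the background. It was not called at either dose without the 3 saline arrays. With valsartan it was not well above background on any of 6 arrays, and its measured levels there were called lower (limma adjusted p = 0.001). Saline was at least 1.58-fold higher, or at least 1.15-fold without the 3 saline arrays, a bound that was not itself tested. That fold is the saline mean over the mean of each valsartan array's detection limit or the probe's own level, whichever is higher. Of 16 glycolysis genes, which make ATP outside the mitochondria, 3, 4 and 3 rose and 5, 2 and 5 fell, and without the 3 saline arrays 5, 5 and 4 were higher and 0, 0 and 2 lower.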

How the data were processed

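Each sample is 1 Agilent 1-colour array of rat thoracic aorta. Intensities were deposited as processed signals from Agilent Feature Extraction 11.0.1.1, per the file headers, with flags (score) for spots well above background, saturated or outlying. The authors' deposited log2 table, whose column medians are all 5.75 and whose centring is not stated, served as an alternative. Processed signals were averaged over the spots of a probe, without outlier spots and control spots. The mean was put in log2, and the array's 75th percentile in log2 was subtracted. The percentile was taken over spots; taking each probe once was tried too, and this choice was made with both results seen. Probes that cleared the background on 6 or more of 26 arrays (23744 of 30367) entered 1 limma 3.58.1 fit of all 4 groups in R 4.3.3 (eBayes with trend), with Benjamini-Hochberg adjustment over all of them and a threshold of 0.05. A gene was read on its brightest tested probe. Per the labels' protocols, RNA was extracted from the aortas separately. Saline arrays 1 and 5, 2 and 6, and 3 and 7 nevertheless deviated together from the mean of their slide (r across probes 0.71, 0.66 and 0.87, with 4 and 8 at -0.04). A slide here means the arrays with the same scan time in the file headers, since slide numbers were not read. Whether these saline arrays share a source is not stated, so p-values measure only the spread between these arrays. Symbols came from RefSeq accessions: 17997 probes had 1 symbol and 12370 none. Tables were made with Python 3.11.15 and pandas 2.3.3. The fit was tested on simulated data. Genes described singly were 20 subunits listed by role (Ndufa4l2 among them had no probe), the 2 largest called rises and falls of each complex against saline (1 of each between treated groups), genes whose probes were called both ways, and up to 2 genes of each pathway list with the smallest p. Any other gene named, such as Ndufs3 or Uqcrh, was chosen with their values seen. The members and lists were chosen with earlier results of these data known. Replicate numbers did not pair the arrays: correlations of same-numbered arrays across groups ran from -0.36 to 0.28. Scaling, background correction, filters, slide, scan day, detector gain and left-out arrays were varied. Some genes counted in the totals are not reported singly here.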

Additional observations from a re-analysis of the deposited data

Results flagged for a closer look

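Of 156 sets of arrays tested for 1 array far from the others of its group, 11 had one, where chance gives about 1 in 20. Low-dose array 2 stood apart in 6 of them. It was high for Sdha at 2.18 (the others 1.61 to 1.71), Sdhb at 1.99 (1.48 to 1.67), Uqcrfs1 at 2.46 (1.62 to 1.86) and Atp5f1a at 5.34 (5.01 to 5.09). It was also high for the complex I median at 2.72 (2.31 to 2.42) and low for Uqcr11 at 2.72 (3.38 to 3.66). Ucp1 on this array was 3.24, the highest of the low-dose group, and its part in these values was not tested.

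Sdha was high on high-dose array 6 at 2.46 (1.58 to 1.89), and Cox6b1 on high-dose array 3 at 1.39 (-0.65 to -0.10). Cox6a2 was high on low-dose array 4 at -2.57 (-5.36 to -4.88). Atp5mc2 was high on saline array 7 at 5.78 (4.40 to 4.74). The median of the 73 genes was high on valsartan array 2 at 2.96 (2.57 to 2.64).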

How the results depend on the processing

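Counts are genes higher and lower of 73. High dose against saline (8 and 28): with gain as a block 4 and 8; without saline arrays 3, 7 and 8 there were 22 and 18 (quantile 22 higher; slide as a random block 20 and 12); without high-dose arrays 3 to 6 there were 4 and 7; slide as a random block gave 18 lower, all-probe median centring 46 lower. The replicate block gave 18 lower, with all saline arrays or with saline arrays 1 to 6 only, where no block also gave 18. Low dose (12 and 25): quantile, the authors' deposited values, centring on probes above background everywhere, slide as a random block and saline as 3 averages (arrays 1 and 5, 2 and 6, 3 and 7) each gave 7 higher; without the 3 saline arrays 24 and 16 (slide random 20 and 11); slide random gave 16 lower and the replicate block 16 in both versions. Valsartan (8 and 37): gain 2 and 6; without the 3 saline arrays 23 higher (quantile 23; slide random 16 and 18 lower); all-probe median 5 higher. The replicate numbers do not pair these arrays.

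High against low dose (2 and 2): 1 higher under quantile, authors' values, slide random, each probe once and all-probe median, and 0 with gain, scan day or without high-dose arrays 3 to 6. Lower were 7 under normexp and with only both groups, 5 without high-dose arrays 1 and 2, 4 with each probe once, 12 under all-probe median, 1 without trend, and 0 under quantile, authors' values, centring on probes above background everywhere, slide random, gain, scan day and without high-dose arrays 3 to 6. Valsartan against high dose (0 lower): 1 under quantile, gain and without high-dose arrays 1 and 2. Valsartan against low dose (1 and 6) gave 0 higher with gain or scan day, where 3 and 2 of all tested probes were higher. There were 10 lower under normexp, 14 with only both groups, 11 under all-probe median and 0 with slide random, gain or scan day.

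Leaving out 1 array gave 7 to 9 higher and 24 to 33 lower (high dose), 8 to 13 and 23 to 32 (low dose), 8 to 11 and 36 to 42 (valsartan), 1 to 2 and 0 to 3 (high against low), 0 to 0 and 0 to 2 (valsartan against high), and 1 to 1 and 3 to 6 (valsartan against low). High against low gave 1 higher without low-dose array 2 or 3 or high-dose array 4 or 5; 0 lower without low-dose array 2 or 5 or high-dose array 3 or 4; and 1 lower without low-dose array 3 or 4 or high-dose array 5 or 6. Valsartan against high gave 1 lower without high-dose array 1 or 3 and 2 without valsartan array 2; valsartan against low gave 3 without low-dose array 5.

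Signs turned without the 3 saline arrays for Ndufv1 at the high dose (0.013; slide random 0.025), Cox7a2 at the high dose (0.38; quantile 0.40) and with valsartan (0.49; quantile 0.53), Cox8a at the high (0.39; quantile 0.44, slide random 0.40) and low dose (0.43; slide random 0.43) and Atp5f1a at the low dose (0.38). Cox6a2 cleared the background on 0 of 6 valsartan arrays, so its -2.02 under quantile, -1.57 in the authors' values and -1.99 under quantile without the 3 arrays measure no change. With gain Ndufa2 was -0.12 with valsartan and -0.23 against the low dose. With scan day Ndufa2 was -0.0015 (high against low), and against the low dose with valsartan Ndufa2 was -0.37 and Cox7c 0.11. The cause was not tested. Of the other values of single genes, 4281 kept direction and side of the threshold, 124 passed it and 243 lost it.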
